A study of Mus musculus with 6 samples.

Results

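The 10 genes described here encode parts of the cytoskeleton of young neurons and proteins that act on it or mark the same stage. They are the tubulins Tuba1a, Tubb2b and Tubb3, the microtubule-binding proteins Dcx and Map2, the stathmins Stmn1 and Stmn2, the growth cone protein Gap43, and the neuronal RNA-binding proteins Elavl3 and Elavl4. They were taken by symbol from a table of RNA-seq read counts with 24062 genes, all 10 were in it, and all 10 passed the filter on low counts with 16904 genes tested. Messenger RNA was sequenced from whole retinae at postnatal day 21 (P21), 3 of the genotype Chx10-Cre Rb1/p107/Hells (TKO) and 3 of the genotype Chx10-Cre Rb1/p107 (DKO). The comparison asks which transcripts differ early when Hells, a chromatin remodeling ATPase, is lost from a retina prone to retinoblastoma.

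In both genotypes Chx10-Cre, which is active in retinal progenitor cells in a mosaic pattern, recombines floxed Rb1, and p107 (the gene Rbl1) is deleted throughout the animal. The TKO retinae additionally carry floxed alleles of Hells, so the DKO retinae are the control and no retina with intact Rb1 and p107 was part of this comparison. Each retina also holds cells that escaped the Cre. The strain is C57BL/6 (C57BL/6N in the study's methods, which used both sexes). Nothing in the labels says whether the 3 retinae of a genotype came from separate litters, so the p-values measure only the spread between these retinae. Library totals ran from 10343907 to 14203098 counts. Hells read 60.8, 68.4 and 83.4 normalized counts in the TKO retinae (replicates 1, 2 and 3, an order kept throughout) and 678, 523 and 395 in the DKO retinae, so each retina followed its label (log2 fold change -2.91, standard error (SE) 0.225, adjusted p = 0.00359 from edgeR). Dividing cell markers, whose genes were not targeted, had a median log2 fold change of -2.60. The Hells counts alone therefore do not show that its alleles recombined. Rb1, floxed in both genotypes, had 682 to 814 normalized counts in TKO and 572 to 617 in DKO retinae and was higher in TKO (log2 fold change 0.34, adjusted p = 0.0388 from edgeR), a call lost with totals only as the scaling (0.18) and with any retina but TKO replicate 3 left out (0.27 to 0.37). Rbl1 had 13.5 to 27.5 and 15.1 to 24.2.

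Microtubules are hollow polymers of alpha- and beta-tubulin that give a growing neuron its shape and carry its cargo. In a neuron that has just left the cell cycle, doublecortin stabilizes them in the leading process, stathmins bind free tubulin and favour disassembly, and Map2 later stiffens them in dendrites, while Gap43 sits under the membrane of the growth cone and the neuronal ELAV proteins bind the messages of many such genes. In the mature retina Tubb3, Map2, Gap43 and the neuronal ELAV proteins are known mostly from ganglion and amacrine cells, and Dcx and Stmn1 are also known from newborn neurons and, for Stmn1, dividing cells.

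The 10 genes did not move as a block. Dcx, Tubb2b, Stmn1, Gap43 and Elavl3 were lower in TKO retinae at an adjusted p of at most 0.05, by 3.43-fold, 2.68-fold, 2.00-fold, 1.69-fold and 1.40-fold. Elavl4, Tuba1a, Stmn2, Map2 and Tubb3 did not pass. Thus 5 of 10 were lower, where 9.2% of all genes tested were, and 0 were higher, where 7.35% of all genes tested were. At an unadjusted p under 0.05, 8 were lower and 0 higher, where 3004 and 2588 of the 16904 genes tested were. DESeq2 called 7 lower and 0 higher, where it called 1757 and 1479 of the 16904 genes. The study's 3 criteria were adjusted p at most 0.05, absolute log2 fold change at least 1 and mean count at least 10. They were applied here to the edgeR fit, where the study used DESeq2. By them, Dcx and Tubb2b were lower, 2 of 10 against 4.38% of all genes, and 0 were higher, against 1.97%. Stmn1 sat at the edge of that fold limit with a log2 fold change of -0.999. The normalized counts of the genotypes did not overlap in 9 genes: 8 were lower in every TKO retina, where 20.6% of all genes were, and 1, Map2, was higher in every TKO retina, where 18% were. The median log2 fold change of the 10 genes was -0.49, beside -0.011 over all genes tested.

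**Figure D1:**
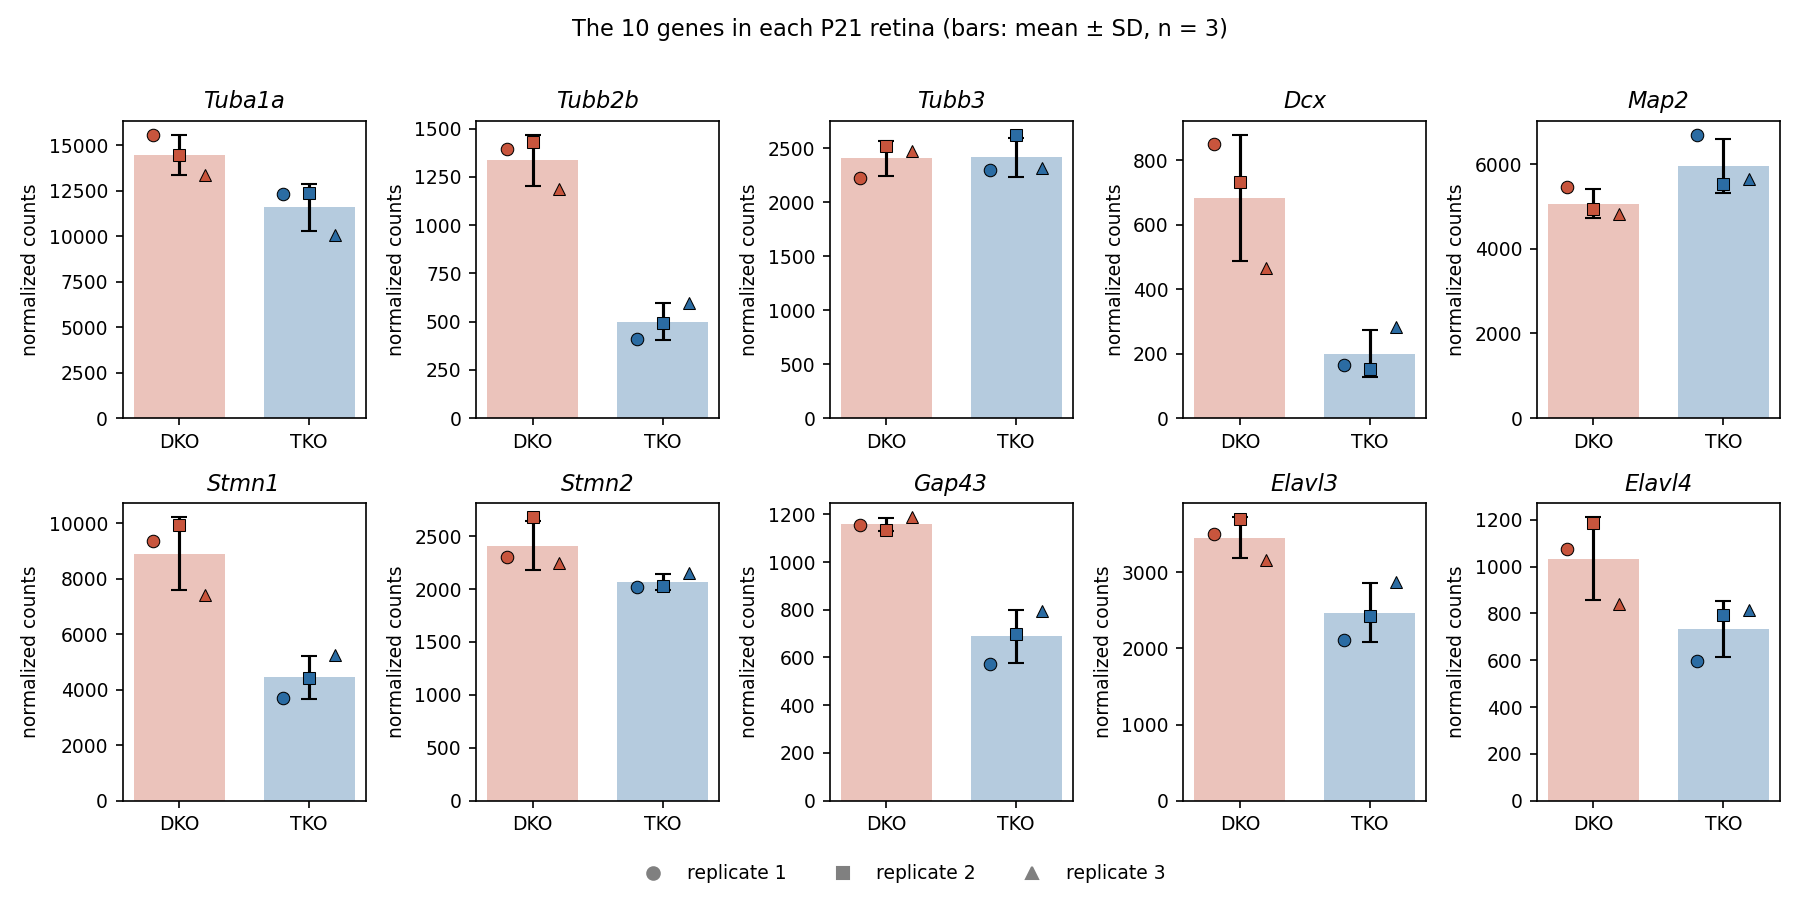
Normalized counts (y axis, each panel starting at 0) of the 10 genes in DKO (red) and TKO (blue) retinae, with symbols for the 3 replicates and bars for the mean ± SD (n = 3). Dcx and Tubb2b show the widest gaps between genotypes, Tubb3 shows none, and in Map2 the 3 TKO retinae lie above the 3 DKO retinae.

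Among the tubulins, Tubb2b stood apart. This beta-tubulin is made mostly by young neurons, and its gene lies at chr13:34126748-34130466 on the minus strand (GRCm38). Its normalized counts were 408, 493 and 599 in TKO and 1395, 1431 and 1186 in DKO retinae. The TKO mean was 499.9 ± 95.5 (SD, n = 3), and the highest TKO retina lay far under the lowest DKO retina. The log2 fold change was -1.42 (95% interval -1.75 to -1.09, adjusted p = 0.00464 from edgeR), which ranked Tubb2b 24 of the 16904 genes by p. It passed with any 1 retina left out (highest adjusted p = 0.0345 from edgeR).

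Tuba1a, the main alpha-tubulin of neurons that extend axons (chr15:98949837-98953703, minus strand), had 12323, 12362 and 10080.2 normalized counts in TKO and 15581, 14494.5 and 13364 in DKO retinae. Every TKO retina was below every DKO retina, but the log2 difference, -0.32 with a 95% interval of -0.59 to -0.049, did not pass (adjusted p = 0.100 from edgeR). Tubb3, the beta-tubulin most often used to stain neurons (chr8:123411424-123422015, plus strand), had 2304, 2628 and 2321 normalized counts in TKO and 2226, 2527 and 2477 in DKO retinae. The genotypes overlapped, with a log2 fold change near 0 (0.0047, 95% interval -0.20 to 0.21, adjusted p = 0.976 from edgeR). Without TMM scaling, with totals only, the median of all genes moved from -0.011 to -0.17 and Tubb3 to -0.15, so the sign of Tubb3 depends on the scaling.

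Tubulin genes are so alike that short reads can fit several of them, and the authors allowed a read up to 3 alignments. The last 60 coding bases of Tubb2b and Tubb2a show how little separates the pair at the end, where the tail that enzymes modify is encoded. They are shown as the coding strand of GRCm38, 5′ to 3′, with the bases that differ in capitals. Tubb2b and Tubb2a differ there at 3 bases (chr13:34127471-34127530 and chr13:34074468-34074527, both minus strand).
Tubb2b: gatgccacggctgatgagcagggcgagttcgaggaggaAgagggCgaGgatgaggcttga
Tubb2a: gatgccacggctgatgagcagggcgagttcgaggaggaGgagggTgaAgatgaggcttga

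Over the whole coding sequence, Tubb2b was 96.5% identical to Tubb2a and 84.5% to Tubb3, and Tuba1a was 98.3% identical to Tuba1b and 97.6% to Tuba1c. Of all 100-base windows in the transcript, 65.1% in Tuba1a, 27.7% in Tubb2b, 26.1% in Stmn1 (shared with Gm11223) and 3.19% in Elavl3 (shared with Gm49318, which overlaps it) also occurred in a transcript of another gene, and 0 did in the other 6 genes. Gm49450, which was not in the count table, shares 473 exonic bases with Tuba1a on the same strand. The counts of Tuba1a and, in part, Tubb2b and Stmn1 therefore carry an uncertainty that depends on how such reads were assigned. No summed count was formed for Stmn1. With the counts of Tubb2b and Tubb2a summed, the log2 fold change was -0.43 (adjusted p = 0.0244 from edgeR), and with those of Tuba1a, Tuba1b and Tuba1c summed it was -0.32 (adjusted p = 0.0935 from edgeR). Tubb2a itself had 4076 to 4650 normalized counts in TKO and 4802 to 5657 in DKO retinae (log2 fold change -0.25, adjusted p = 0.111 from edgeR). It thus made up most of the summed counts, and the summed fold change lay between its own and that of Tubb2b (-1.42).

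Dcx encodes doublecortin, which marks migrating and newborn neurons (chrX:143855842-143933311, minus strand). Its normalized counts were 164, 152 and 283 in TKO and 849, 733 and 466 in DKO retinae. All TKO retinae were below all DKO retinae, and replicate 3 of each genotype lay nearest the other genotype. Its log2 fold change, -1.78 (95% interval -2.43 to -1.13, adjusted p = 0.00821 from edgeR), was the lowest of the 10 genes, and 3.34% of all genes tested had a lower one. With any 1 retina left out it still passed (highest adjusted p = 0.0431 from edgeR), with log2 fold changes from -2.11 without TKO replicate 3 to -1.59 without DKO replicate 1.

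Map2, the dendritic microtubule-associated protein (chr1:66175273-66442583, plus strand), had 6693, 5537 and 5635 normalized counts in TKO and 5456, 4926 and 4815 in DKO retinae. Its TKO values all lay above its DKO values, narrowly so for TKO replicate 2 and DKO replicate 1. The log2 fold change, 0.23 with a 95% interval of -0.011 to 0.48, did not pass (adjusted p = 0.166 from edgeR), and it passed in 0 of 15 alternative fits. An antisense gene, Gm10558, shares 124 exonic bases with Map2, and since the strand setting of the counting is not given in the sources used here, reads from it cannot be told apart.

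Stmn1 encodes stathmin, a tubulin-sequestering protein of dividing and immature cells (chr4:134468320-134473843, plus strand). It had 3699, 4414 and 5247.5 normalized counts in TKO and 9360.5, 9934 and 7412 in DKO retinae. The lowest DKO retina, replicate 3, was still above the highest TKO retina. The log2 fold change was -0.999 (95% interval -1.36 to -0.64, adjusted p = 0.00821 from edgeR), and it passed with any 1 retina left out (highest adjusted p = 0.0439 from edgeR). It crossed the fold limit of the criteria above when TKO replicate 3 (-1.13) or DKO replicate 3 (-1.12) was left out, which made 3 genes in place of 2. Alternatives that kept every retina also took its fold change past that limit, to -1.15 at the lowest.

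Its relative Stmn2, also called SCG10, is restricted to neurons and sits in growth cones (chr3:8509360-8561606, plus strand). It had 2016, 2027 and 2152.5 normalized counts in TKO and 2307, 2679 and 2247 in DKO retinae. The genotypes did not overlap, though the highest TKO and lowest DKO retina were close. The log2 fold change, -0.22 with a 95% interval of -0.43 to -0.017, did not pass (adjusted p = 0.125 from edgeR).

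Gap43, a membrane-bound protein of growth cones and regenerating axons (chr16:42248442-42340651, minus strand), had 572, 697 and 795 normalized counts in TKO and 1155, 1135 and 1188 in DKO retinae. The DKO retinae agreed closely (1159 ± 27.0, SD, n = 3), the TKO retinae less so (688 ± 112). The log2 fold change was -0.75 (95% interval -1.02 to -0.49, adjusted p = 0.0078 from edgeR), and it passed with any 1 retina left out (highest adjusted p = 0.0429 from edgeR).

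Elavl3 and Elavl4 encode the neuronal RNA-binding proteins HuC and HuD, which stabilize messages with AU-rich stretches. Elavl3 (chr9:22015005-22052023, minus strand) had 2115, 2419 and 2875 normalized counts in TKO and 3508, 3693 and 3165 in DKO retinae, with no overlap. Elavl4 (chr4:110203722-110351909, minus strand) had 595, 791 and 814 in TKO and 1077, 1186 and 840.1 in DKO retinae, where DKO replicate 3 lay just above the highest TKO retina. Their log2 fold changes were nearly equal, -0.48 (95% interval -0.76 to -0.21, adjusted p = 0.0313 from edgeR) for Elavl3 and -0.50 (95% interval -0.86 to -0.14, adjusted p = 0.0646 from edgeR) for Elavl4. The difference between the pair was tested as their ratio, given with the other pairs.

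The call of Elavl3 was lost without TKO replicate 1 (adjusted p = 0.0902 from edgeR), TKO replicate 2 (0.114), DKO replicate 1 (0.0935) or DKO replicate 2 (0.116). Elavl4 passed without DKO replicate 3 (adjusted p = 0.0199 from edgeR) and with DESeq2 (0.0286).

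**Figure D2:**
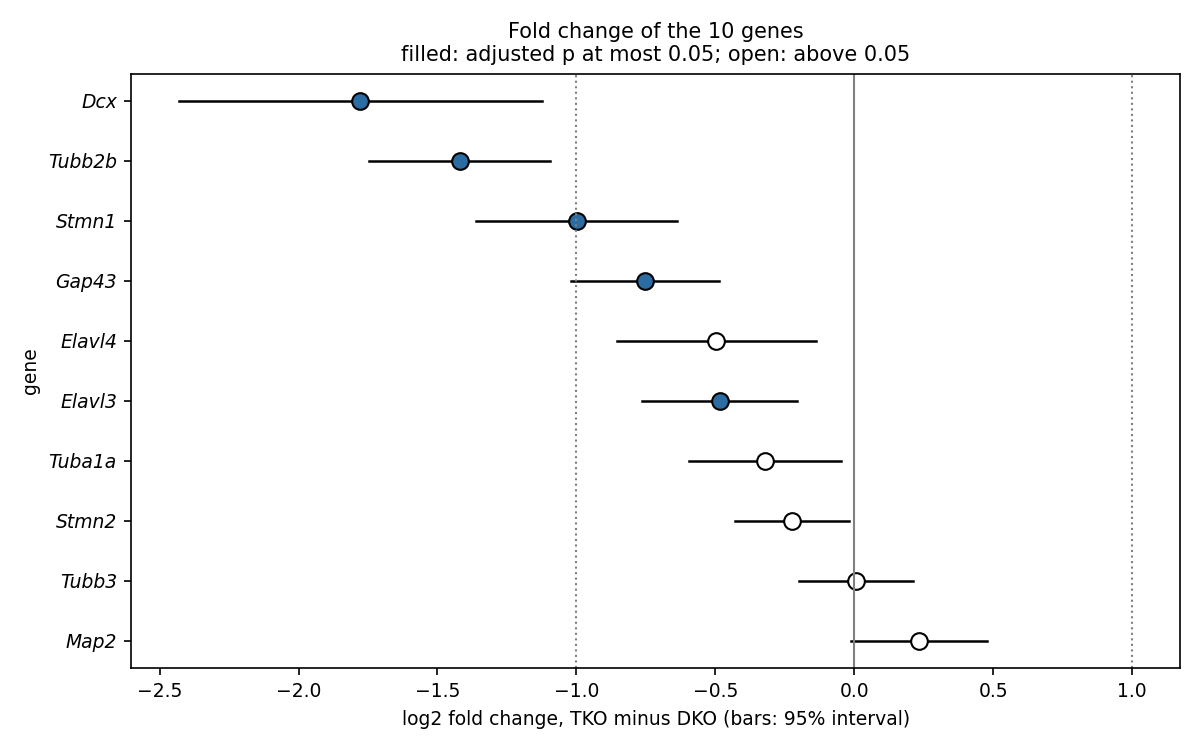
Log2 fold change (x axis, TKO minus DKO) of the 10 genes with 95% intervals from edgeR, filled where the adjusted p was at most 0.05, with dotted lines at a log2 fold change of -1 and 1. The values run from -1.78 in Dcx to 0.23 in Map2, and the interval of Tubb3 lies around 0.

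Because relatives within the set differed in their fold changes, ratios were formed within each retina, which scaling cannot alter. The pairs were chosen after the values were seen, and 3 retinae against 3 cannot give an exact permutation p below 0.1. In TKO retinae the log2 ratio of Tubb2b to Tubb3 was -2.29 ± 0.293 (SD, n = 3), against -0.85 ± 0.196 in DKO, a difference of -1.44 (exact permutation test, two-sided, p = 0.1, adjusted p = 0.15 over 6 pairs). For Tubb2b to Tubb2a it was -3.14 ± 0.181 and -1.96 ± 0.167, for Stmn1 to Stmn2 1.09 ± 0.206 and 1.88 ± 0.150, and for Dcx to Map2 -4.95 ± 0.559 and -2.93 ± 0.378. In these 4 pairs the genotypes did not overlap, and each test gave the smallest p possible (exact permutation p = 0.1, adjusted p = 0.15). The ratio of Tuba1a to Tuba1b differed by -0.043 (exact permutation p = 0.6, adjusted p = 0.72) and that of Elavl3 to Elavl4 by 0.0020 (exact permutation p = 1), each within the spread between replicates.

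**Figure D3:**
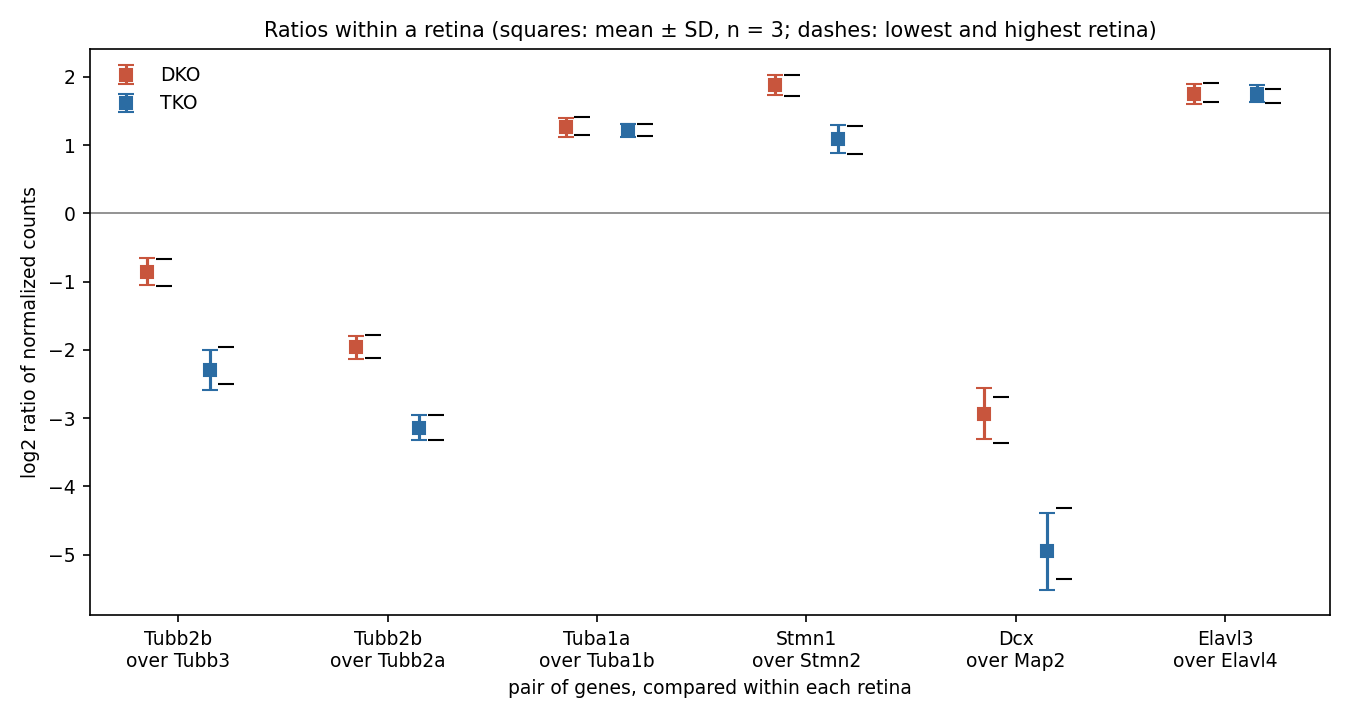
Log2 ratio of normalized counts (y axis) for 6 pairs of genes, formed within each retina, as mean ± SD (squares, n = 3) with the lowest and highest retina (dashes) in DKO (red) and TKO (blue). The ratios of Tubb2b to Tubb3, Tubb2b to Tubb2a, Stmn1 to Stmn2 and Dcx to Map2 were lower in every TKO retina, and those of Tuba1a to Tuba1b and Elavl3 to Elavl4 overlapped.

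Sequences upstream of the start were compared because some of the genes moved together. RefSeq windows of 250 bases before the RefSeq start (GRCm38.p6) were at hand for Dcx, Elavl3, Elavl4, Map2, Tuba1a and Tubb3, 6 of the 10. The GENCODE gene begins further upstream in 4 of them, so only 48 bases in Tuba1a, 121 in Tubb3, 158 in Dcx and 194 in Map2 lie before it. Each was searched on both strands for the TATA box (spelled TATAAA), the CCAAT box (spelled by its name) and the GC box (spelled GGGCGG). Of the boxes found in the 6 windows, 0 overlapped. Each was also searched for TTTCCCGC or its variant TTTGGCGC, letters bound by E2F factors, which Rb1 and p107 restrain. The E2F letters were in 0 of the 6 windows and in 1.35% of 27025 windows of all genes. Of 11 windows of the dividing cell markers described below, 1 (Mcm6) held them. At so low a share 0 of 6 is the usual outcome, so it does not show that the genes lack E2F sites. The TATA box was in the windows of Dcx and Elavl3 (13% of all), the CCAAT box in those of Dcx, Elavl3, Tuba1a and Tubb3 (34.5% of all), and the GC box in those of Elavl3, Map2, Tuba1a and Tubb3 (33% of all). The CCAAT boxes of Tuba1a and Tubb3 and the GC box of Tuba1a lay inside the annotated gene. Of the 2 GC boxes of Tubb3, 1 lay upstream of the annotated gene, and of the 5 of Map2, 4 did. The stretches upstream of the annotated transcript are shown for Dcx (chrX:143933312-143933469, minus strand) and Elavl3 (chr9:22052024-22052273, minus strand), which were lower in TKO retinae, and for Tubb3 (chr8:123411303-123411423, plus strand) and Map2 (chr1:66175079-66175272, plus strand), which did not pass. They read 5′ to 3′ toward the start, with the letters of the 3 boxes in capitals.
Dcx: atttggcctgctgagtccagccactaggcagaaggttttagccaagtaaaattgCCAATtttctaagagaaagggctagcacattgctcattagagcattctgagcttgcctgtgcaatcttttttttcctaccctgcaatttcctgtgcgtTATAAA
Elavl3: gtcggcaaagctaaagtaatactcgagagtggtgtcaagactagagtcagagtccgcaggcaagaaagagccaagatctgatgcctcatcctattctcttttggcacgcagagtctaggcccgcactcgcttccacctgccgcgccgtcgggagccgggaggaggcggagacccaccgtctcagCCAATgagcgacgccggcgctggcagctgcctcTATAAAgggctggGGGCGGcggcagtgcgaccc
Tubb3: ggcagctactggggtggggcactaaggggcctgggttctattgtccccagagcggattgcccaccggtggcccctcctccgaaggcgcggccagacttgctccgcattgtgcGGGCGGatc
Map2: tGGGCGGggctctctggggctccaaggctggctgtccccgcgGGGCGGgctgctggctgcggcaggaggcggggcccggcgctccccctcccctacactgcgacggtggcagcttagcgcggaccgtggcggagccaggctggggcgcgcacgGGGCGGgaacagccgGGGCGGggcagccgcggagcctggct

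The GC content of the windows of 250 bases was 41.6% in Dcx, 61.6% in Elavl3, 68% in Tubb3 and 81.2% in Map2, beside a median of 52% over all genes. A match of letters is a description of the window and says nothing of a factor.

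Levels can be set side by side between genes only per length, here as counts per kilobase of annotated exons, scaled to the same sum in each retina (TPM). In DKO retinae the order ran from Tuba1a (2966 ± 318 TPM, SD, n = 3) and Stmn1 (1712 ± 291) through Tubb3 (475 ± 23.4), Gap43 (281 ± 6.70), Tubb2b (215 ± 26.5), Elavl3 (185 ± 18.3), Stmn2 (159 ± 16.8) and Map2 (114 ± 11.1) to Elavl4 (71.0 ± 13.5) and Dcx (20.0 ± 6.28). The ranges of Tubb2b and Elavl3, and those of Elavl3 and Stmn2, overlapped, while the other neighbours did not. Dcx, the gene with the largest fold change, was thus the least abundant of the 10.

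In TKO retinae Tuba1a (2151 ± 151 TPM), Stmn1 (782 ± 170) and Tubb3 (434 ± 27.5) again came first and Elavl4 (45.8 ± 8.77) and Dcx (5.36 ± 2.23) last. Tubb2b, at 73.6 ± 17.3 TPM, had rank 8, below Stmn2 (124 ± 10.3), Map2 (121 ± 11.8) and Elavl3 (121 ± 24.1), where its rank in DKO retinae was 5. With the longest transcript in place of all exons, Tubb2b had rank 8 in both genotypes, Stmn1 (2312 TPM) came before Tuba1a (2209 TPM) in DKO retinae, and Map2 ranked 5 in place of 8, since Map2's exons together are 16449 bases long and its longest transcript is 6258.

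Several of the genes that were lower, but not all, ranked the 6 retinae alike. From low to high, Stmn1, Tubb2b and Elavl3, and Elavl4, which did not pass, each gave the order TKO replicates 1, 2 and 3, then DKO replicates 3, 1 and 2. Dcx gave TKO replicates 2, 1 and 3, then DKO replicates 3, 2 and 1. Gap43 gave TKO replicates 1, 2 and 3, then DKO replicates 2, 1 and 3. How many of all genes share an order was not counted. The likeness of profiles was measured as the root mean square difference between deviations of log2 CPM (counts in a library of 1000000) from each gene's mean, where 0 is the same profile. The nearest other member was Elavl4 for Elavl3 (0.108), Elavl3 for Gap43 (0.160), Gap43 for Stmn1 (0.192), Stmn1 for Tubb2b (0.215) and Tubb2b for Dcx (0.302), a chain that follows the size of the fold change. Stmn2 was nearest to Tubb3 (0.153), Tuba1a to Stmn2 (0.166) and Map2 to Tubb3 (0.207), and the farthest pair was Dcx and Map2 (1.06).

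Among all genes with a mean of at least 1 CPM, those nearest to Dcx were Cdca7l (0.0566), 6720489N17Rik (0.0996) and Nfib (0.102). Nfix (0.0478), Slc44a5 (0.0658) and Mycl (0.0875) were nearest to Tubb2b, and Ctxn1 (0.0391), Itga6 (0.0494) and Ppp1r14b (0.0597) to Stmn1. Dbi, Zfp710 and Chrna3 were nearest to Gap43 (0.0240 to 0.0394), Astn2, Hbegf and Galnt16 to Elavl3 (0.0274 to 0.0367), and Ppp1r14c, Id4 and Rin2 to Elavl4 (0.0163 to 0.0499). For the genes that did not pass, they were Slc22a15, Hnmt and Mtmr12 for Tuba1a (0.0424 to 0.0526), Mrpl16, Stau2 and Armcx6 for Stmn2 (0.0188 to 0.0303), Cecr5, Supt16 and Lrba for Map2 (0.0249 to 0.0287), and Prr24, Mbd2 and Tbc1d9 for Tubb3 (0.0165 to 0.0203).

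**Figure D4:**
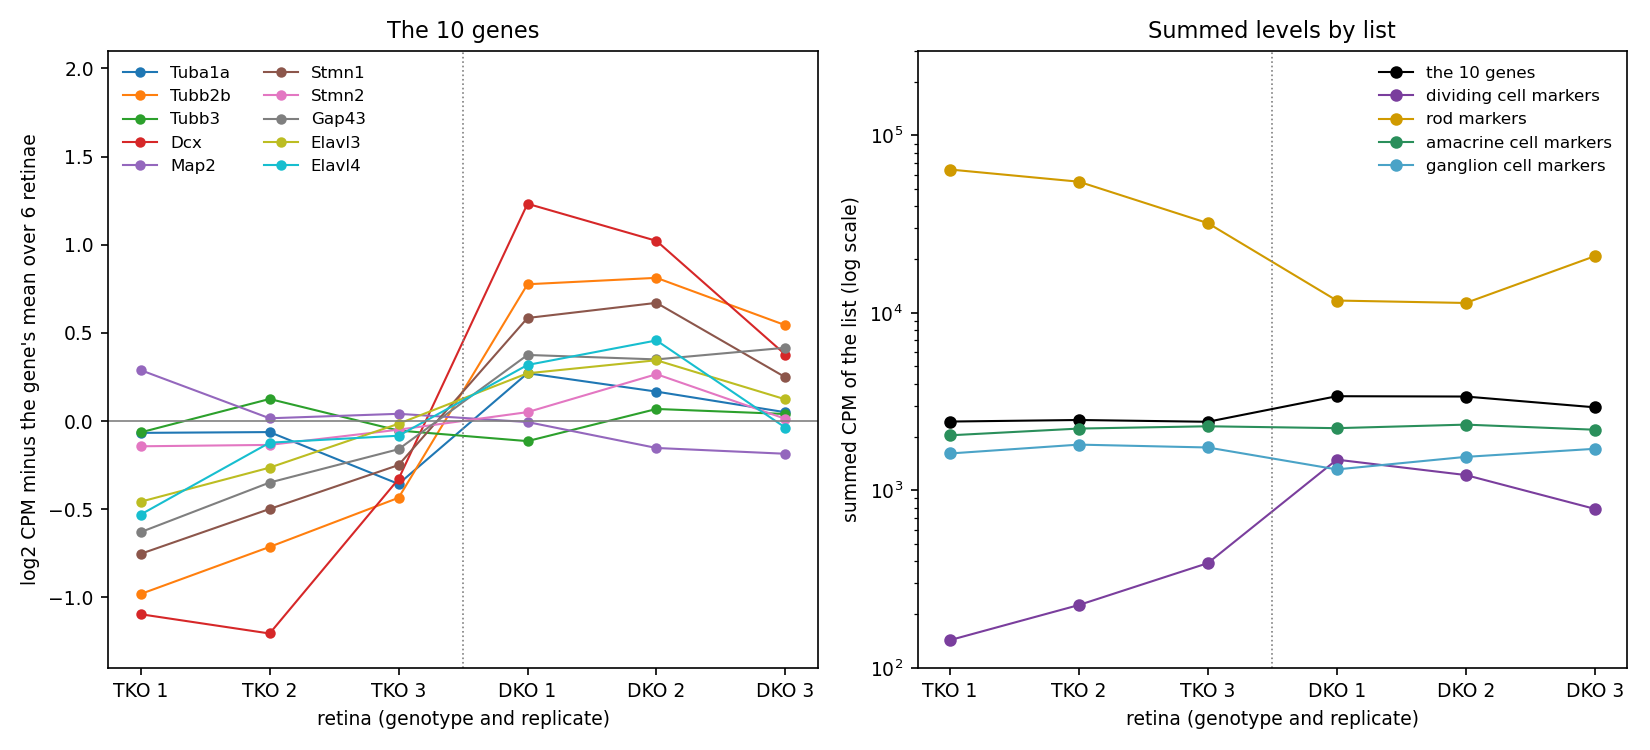
Left, log2 CPM of each of the 10 genes minus its mean over the 6 retinae (y axis) by retina (x axis). Right, summed CPM (log scale) of the 10 genes and of 4 marker lists in the same retinae, with lines that only join the values of 1 gene or list. Dcx ranges from -1.21 to 1.23, and the dividing cell markers run from 143 to 1490. The sum over the 10 genes runs from 2435 to 2492 in TKO and from 2938 to 3393 in DKO retinae.

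Other genes of the same machinery were read from 11 lists with 148 genes, of which 145 were tested. Together 34 were lower (9.2% of all genes were) and 17 higher (7.35% of all genes were), with a median log2 fold change of -0.098. These counts rest on single retinae. With a TKO retina left out they were 20 and 5 (replicate 1), 13 and 0 (replicate 2) and 39 and 19 (replicate 3), and with a DKO retina left out 14 and 1 (replicate 1), 14 and 0 (replicate 2) and 31 and 18 (replicate 3). With totals only as the scaling they were 48 and 9.

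Of 14 other tubulins tested, 5 were lower and 1 higher, with a median of -0.24. Tubb5, the beta-tubulin of many cell types, had 6330.1 to 7670.0 normalized counts in TKO and 11540.2 to 13134 in DKO retinae (log2 fold change -0.82, adjusted p = 0.00691 from edgeR). Tuba1c (-2.41) and Tubb6 (-1.89), a beta-tubulin found mostly outside neurons, had the largest changes of the list, at 11.5 to 46.6 and 57.3 to 123 normalized counts in TKO retinae. Tubg1 (-0.35), which nucleates microtubules at the centrosome, and Tubb4b (-0.33) were lower and Tube1 (0.75), a tubulin of the centriole, was higher. Tuba1b gave -0.28 on the log2 scale (adjusted p = 0.0876 from edgeR), beside -0.32 for Tuba1a, and Tubal3 was at 0 in all libraries.

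Of 16 enzymes that fold or modify tubulin, 3 were lower (Vash2, Vash1 and Ccdc23, the gene of their partner Svbp, which together remove the last tyrosine of alpha-tubulin) and 1, the folding cofactor Tbcc, was higher. Vash2 gave a log2 difference of -0.87 (adjusted p = 0.0148 from edgeR) and Tbcc 0.78 (adjusted p = 0.0162 from edgeR). The median of the list was -0.065. With 1 retina left out, 0 to 3 of the list were lower and 0 to 2 higher. The number lower was 0 without TKO replicate 2, DKO replicate 1 or DKO replicate 2.

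Of 5 further stathmins and doublecortins, Stmn4 (-0.54, adjusted p = 0.0157 from edgeR) and Dclk2 (-0.51, adjusted p = 0.0153) were lower and 0 were higher, and 0 had an unadjusted p under 0.05 in that direction. Dclk1 had a log2 fold change of -0.078 and Stmn3 of -0.12, neither past the threshold. The calls of Stmn4 and Dclk2 were lost when replicate 1 or 2 of either genotype was left out.

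Of 13 other microtubule-associated proteins, 1 was lower and 4 were higher, with a median of 0.14 (1, 3 and -0.018 with totals only as the scaling, 1 and 0 to 2 calls when replicate 1 or 2 of either genotype was left out). Mapre1, a plus-end-binding protein of dividing cells, was lower (-0.62, adjusted p = 0.0078 from edgeR). Map1b, a neuronal microtubule-binding protein, was higher (0.79, adjusted p = 0.0194 from edgeR), with 8624 to 12321 normalized counts in TKO and 4651 to 6475 in DKO retinae. Mapre3 (0.61), Map7 (0.45) and Mapre2 (0.35) were also higher.

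**Figure D5:**
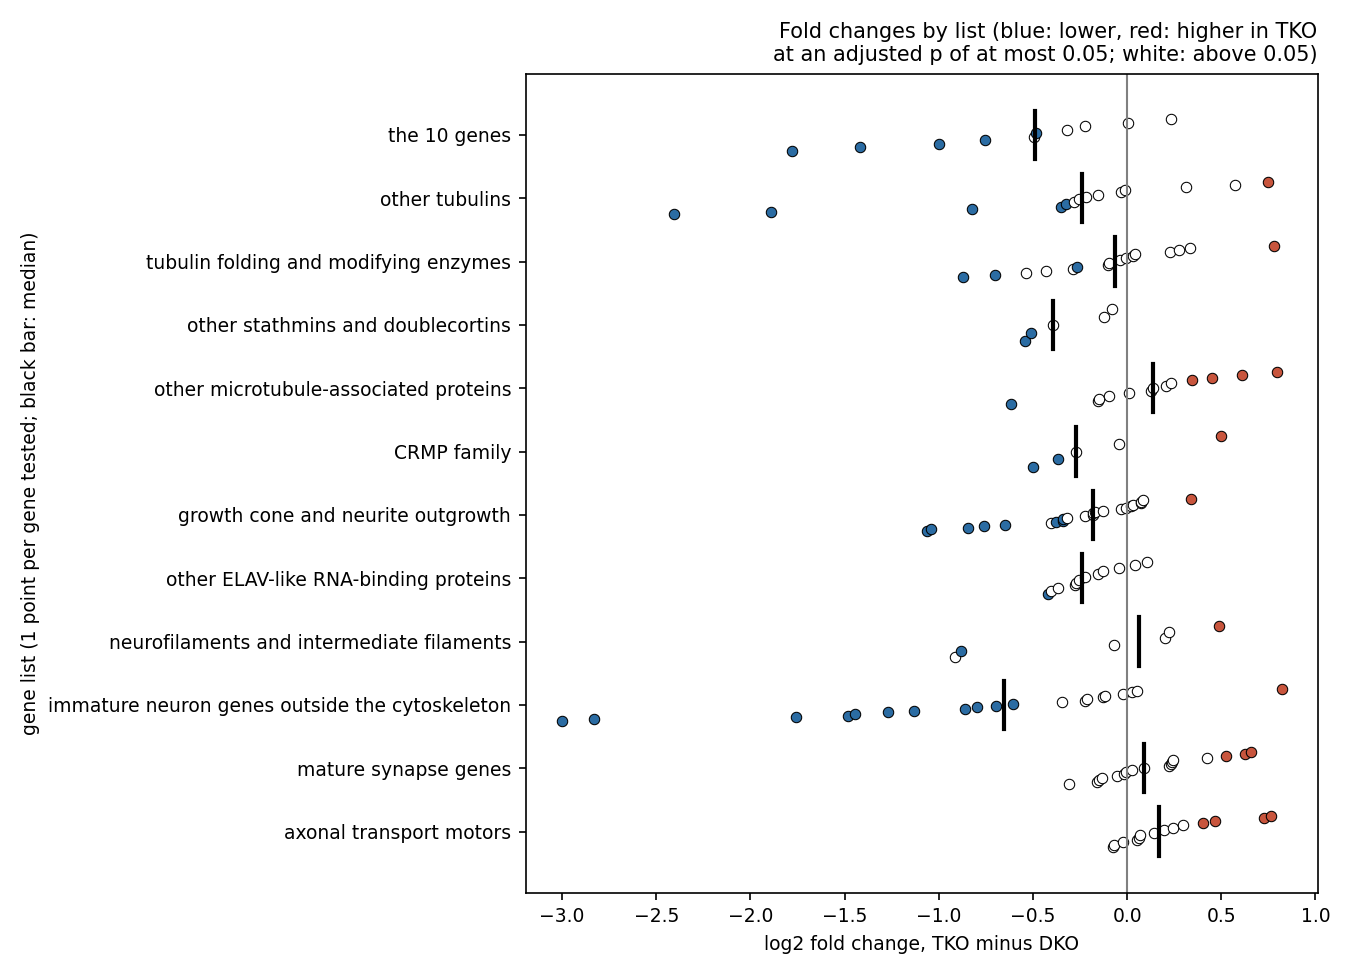
Log2 fold change (x axis, TKO minus DKO) of every gene tested in the set of 10 and in 11 lists of related genes, 1 point per gene, with the median of each list as a black bar. Blue points were lower and red points higher at an adjusted p of at most 0.05. The list of immature neuron genes outside the cytoskeleton has the lowest median, -0.65, and the axonal transport motors have the highest, 0.17 (0.012 with totals only as the scaling).

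Of the 5 CRMP proteins, which link semaphorin signals to microtubules, Crmp1 (-0.37) and Dpysl5 (-0.50) were lower and Dpysl3 (0.50) was higher. Of 23 genes of the growth cone and neurite outgrowth, 8 were lower (2 to 10 with 1 retina left out, and 2 without TKO replicate 2, DKO replicate 1 or DKO replicate 2) and 1 higher (0 to 1), with a median of -0.18. They included the semaphorin receptor Nrp1 (-1.06, adjusted p = 0.00554 from edgeR), the actin-binding Dbn1 (-0.76) and Marcksl1 (-1.04), which ties actin to the membrane. Marcksl1 had 830.3, 1389 and 1619 normalized counts in TKO and 2524, 2908 and 2452 in DKO retinae. Rufy3 was higher (0.34). Of 12 other ELAV-like and neuronal RNA-binding proteins, 1 was lower (Nova1, -0.42) and 0 were higher, with 5 and 0 at an unadjusted p under 0.05 and 2 and 0 with DESeq2, and the median of -0.24 lay on the side of Elavl3 and Elavl4.

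Of 20 immature neuron genes outside the cytoskeleton, 11 were lower and 1 higher, with a median of -0.65. Insm1, a transcription factor of neurons leaving the cycle, had 211, 195 and 169 normalized counts in TKO and 805, 731 and 412 in DKO retinae (log2 fold change -1.76, adjusted p = 0.00691 from edgeR). Cd24a (-1.48), a surface protein of young neurons, and Sox4 (-1.27), a transcription factor known to activate Tubb3 in other neurons, were lower as well. Neurod1, which photoreceptors also use, was higher (0.82, adjusted p = 0.0369 from edgeR). Its call was lost when replicate 1 or 2 of either genotype was left out, and with robust dispersion. The count of lower genes ranged from 6 to 11 with 1 retina left out, with 6 without TKO replicate 2 or DKO replicate 2.

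Lists of later stages had more calls higher than lower under TMM scaling. Of 17 genes of mature synapses, 3 were higher, among them Dlg4 (0.52) and Pclo (0.66), and 0 lower, with 1 lower at an unadjusted p under 0.05 and 0 with DESeq2. Of 14 axonal transport motors, 4 were higher, led by Kif1b (0.73, adjusted p = 0.0228 from edgeR), and 0 lower, also at an unadjusted p under 0.05 and with DESeq2. With totals only as the scaling, 2 of the synapse genes were lower and 1 higher, with a median of -0.062 in place of 0.091, and 1 motor was higher. None of the 7 calls was kept when replicate 1 or 2 of either genotype was left out. Of 6 neurofilament and intermediate filament genes, Nefh, a filament of large axons, was higher (0.49) and Nes, a filament of progenitors and glia, was lower (-0.88).

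In a bulk retina, fewer cells of a type and less RNA per cell cannot be told apart, and several cell type lists moved with the 5 genes that were lower. All 12 dividing cell markers were lower in TKO retinae (7 to 12 with 1 retina left out), and their summed level was 143 to 389 CPM in TKO and 787 to 1490 in DKO retinae. It ordered the retinae nearly as Stmn1 and Tubb2b did, with TKO replicate 1 lowest and TKO replicate 3 and DKO replicate 3 nearest each other. All 12 rod markers were higher (5 to 12 with 1 retina left out), with 32048 to 64255 CPM in TKO and 11374 to 20864 in DKO retinae, and 7 of 10 microglia markers were lower (1 to 8), with 149 to 267 and 321 to 484. From low to high, the microglia sum ordered the retinae exactly as Stmn1 and Tubb2b did, and the rod sum ordered them in exact reverse. Such an order is thus not particular to the dividing cell markers. The part of these lists in the differences of the 10 genes was not tested.

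The neurons best known for Tubb3, Map2, Gap43 and the neuronal ELAV proteins in the mature retina are amacrine and ganglion cells. Of 13 amacrine markers 0 passed in edgeR (3 lower and 2 higher at an unadjusted p under 0.05, 2 lower and 1 higher with DESeq2), and their summed level was 2043 to 2297 CPM in TKO and 2196 to 2347 in DKO retinae. Of 13 ganglion cell markers Ebf3 was lower and Nefh higher, with sums of 1614 to 1810 and 1312 to 1714. Of 8 horizontal cell markers Tmem229a was lower (0 to 4 with 1 retina left out) and Sept4 higher (0 in each such fit), and the median of the list was -0.47. Of 12 bipolar markers 3 were higher (0 to 6 with 1 retina left out), as were 2 of 10 cone markers (0 to 9), of which 8 had an unadjusted p under 0.05, and the medians were 0.40 and 0.83. Among non-neuronal lists, 4 of 10 Muller glia markers were higher and 1 (Apoe) lower, 2 of 7 gliosis markers (Lcn2 and C4b) were lower, as was 1 of 5 oligodendrocyte markers (Mog), and 1 of 6 endothelial markers (Pecam1), 1 of 8 RPE markers (Rpe65) and 4 of 8 lens markers were higher. The lens markers summed to 274 CPM in TKO replicate 2, 41.0 to 49.5 in the other TKO retinae and 8.33 to 8.58 in DKO retinae, while the erythroid gene Alas2, the only blood marker not at 0 in all libraries, was higher in TKO retinae. Without TKO replicate 2, 4 lens markers were still higher, so that fit does not remove the lens difference. In it Dcx, Tubb2b, Stmn1 and Gap43 passed, with log2 fold changes of -1.61, -1.41, -0.99 and -0.76, and Elavl3 did not. The part of lens material in these differences was not tested.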

How the data were processed

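The data were 6 whole P21 retinae, 3 TKO and 3 DKO, grouped by the genotype label. The deposited table holds whole-number read counts per gene, 1 column per retina, which the authors did not normalize. Per the study's methods, paired-end reads were aligned by STAR to GRCm38 (a read could align up to 3 times) before HTSeq assigned them to genes. The submitters' processing notes instead name TopHat2, featureCounts and DESeq2, and the strand setting is not given in the sources used here.

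Genes with fewer than 10 counts summed over the retinae were left out. Genotypes were compared by the quasi-likelihood F test of edgeR 4.0.16 (R 4.3.3), after TMM scaling, with Benjamini-Hochberg adjustment over 16904 genes at 0.05. For normalized counts, each library's effective size (total times TMM factor) was set to the mean of the 6. Intervals cover 95%. Retinae of a genotype varied beyond counting noise (chi-square over its degrees of freedom, 8.61 to 25.3). The test was run on simulated data first. Log2 ratios used normalized counts and profiles log2(CPM + 0.5). Of 294 listed symbols 293 were in the table, 3 of them by a RefSeq synonym. Positions and lengths come from a GENCODE annotation of GRCm38, upstream sequences from RefSeq, and pairs were compared by an exact permutation test.

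The members and the gene lists were chosen with earlier results of these data known, so no list is independent evidence of a direction. Named genes were the members, Hells, Rb1 and Rbl1, and of each list the 3 with the largest mean count and the 3 with the smallest adjusted p, and, for likeness, the 3 nearest genes. Other genes were named after their values were seen, where a list had few calls. The text prints only part of the genes that the rule took. Alternatives were DESeq2 1.42.0, 3 scalings, 3 filters, robust dispersion, the replicate number as a block and each retina left out. Summed paralog counts were added after seeing the data.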

Additional observations from a re-analysis of the deposited data

How the results depend on the processing

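Dcx, Tubb2b, Stmn1, Gap43 and Elavl3 kept their direction in all 15 alternatives to the edgeR test, and Dcx, Stmn1 and Gap43 stayed past the threshold in 14, Tubb2b in 15 and Elavl3 in 10. With totals only as the scaling, which moved the median of all genes from -0.011 to -0.17 and the share of lower genes among all calls from 55.6% to 77%, Tuba1a (-0.48), Stmn2 (-0.38) and Elavl4 (-0.65) passed, so that 8 members were lower, and Rbl1 went to -0.036. In the related lists 9 genes were then higher. Under DESeq2, Tuba1a (-0.31) and Elavl4 (-0.49) passed. Tubb3 turned negative with totals only (-0.15), upper quartile scaling (-0.029) and a minimum of 10 counts in every library (-0.0071), never past the threshold. With 1 retina left out, the fold change ran from -0.059 to 0.040 in Tubb3, from -0.60 to -0.39 in Elavl3, from -0.63 to -0.37 in Elavl4 and from -0.15 to 0.36 in Rbl1. The number of members past the threshold ran from 4 to 6. In the related lists the count ran from 13 to 39 lower and from 0 to 19 higher genes, and over all genes from 647 without DKO replicate 2 to 3590 without TKO replicate 3, in place of 2799. The replicate numbers did not pair the retinae (correlations of deviations 0.060, -0.049 and -0.21 for numbers 1, 2 and 3). A fit with the number as a replicate block called 106 of all genes. Its fold changes were -1.78 in Dcx, -1.004 in Stmn1, -0.76 in Gap43 and -0.49 in Elavl3, without passing. With this block 1 member, Tubb2b, was lower by either call rule, and 2 genes of the related lists were lower and 0 higher.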
